A study of Saccharomyces cerevisiae with 6 samples.

Results

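The genes described here build the cell wall of budding yeast or control its upkeep, and after 2 h of paraquat 0 of them passed the test for a change. They were chosen by gene symbol as a list of 34 cell wall genes. Of these, 32 had a probe under the platform's annotation, 33 probes in all, and FKS1 and GSC2, the genes of the catalytic subunits of β-1,3-glucan synthase, had none. A value on all 3 arrays was present for 31 genes. They make 32 of the 5693 features tested, since CCW14 has 2 probes, and the array carries 5365 gene names in all.

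The series compared Saccharomyces cerevisiae strain S288C, a common laboratory strain, with and without paraquat (methyl viologen), a compound that passes electrons to oxygen inside cells and so gives superoxide. Treated cultures had reached an OD of 1 in YPD, a rich glucose medium, at 25 °C when paraquat was added to 35 ppm. Their cDNA, labelled with Cy5, was hybridised against Cy3-labelled cDNA of untreated cultures kept for the same 2 h. The 3 arrays hold independent biological samples according to the design text, and a high and a low laser power setting gave 6 scans. Each value below is a log2 ratio of paraquat over untreated, as the mean of both scans of an array; the base and the direction are stated in no source used here and follow the order of the channels, so that with the opposite direction every sign would turn. Dyes were not swapped, so dye and treatment cannot be told apart. A ratio gives no expression level, and the cell number behind a culture's RNA and the RNA per cell cannot be told apart.

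The yeast wall is a mesh of β-1,3-glucan, to which β-1,6-glucan, a little chitin and a coat of mannoproteins are joined. Glucan and chitin are made at the plasma membrane, remodelled outside it by transglycosylases, and loaded with proteins held by a glycosylphosphatidylinositol (GPI) remnant or by an alkali-sensitive bond. When the wall is damaged, sensors at the cell surface act through protein kinase C and a kinase cascade that ends in Slt2, and Slt2 activates the transcription factor Rlm1, which drives many wall genes.

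Across the list, the limma test with Benjamini-Hochberg adjustment over all 5693 features called 0 of 32 features at an adjusted p under 0.05. The background was low too, with 2 of all features called, or 0.0351%. The smallest adjusted p of a member was 0.394, for CRR1. At an unadjusted p under 0.05 the list held 1 feature, CRR1, or 3.12%, where 10.8% of all features lay past that level. The means of 13 members were above 0 and those of 19 below it, where 2803 of all features were above 0 and 2890 below it. The members' means ran from -0.53 for CRR1 to 0.27 for RLM1, and the median was -0.065, against -0.0065 over all features. The list median was -0.21 without replicate 2 and 0.0062 without replicate 3, so its sign turned when replicate 3 was left out.

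The intervals bound the mean change of each gene. The 95% interval of the mean, from limma's variance moderated across features, lay inside a 2-fold change in both directions for 32 of 32 features, with a lowest bound of -0.98 for CRR1 and a highest of 0.70 for RLM1. With each feature's own variance in place of the moderated one, 14 of 32 intervals lay inside that limit. The SD over arrays had a median of 0.40 over the list and of 0.30 over all features, and 23 of 32 members lay above the latter.

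**Figure D1:**
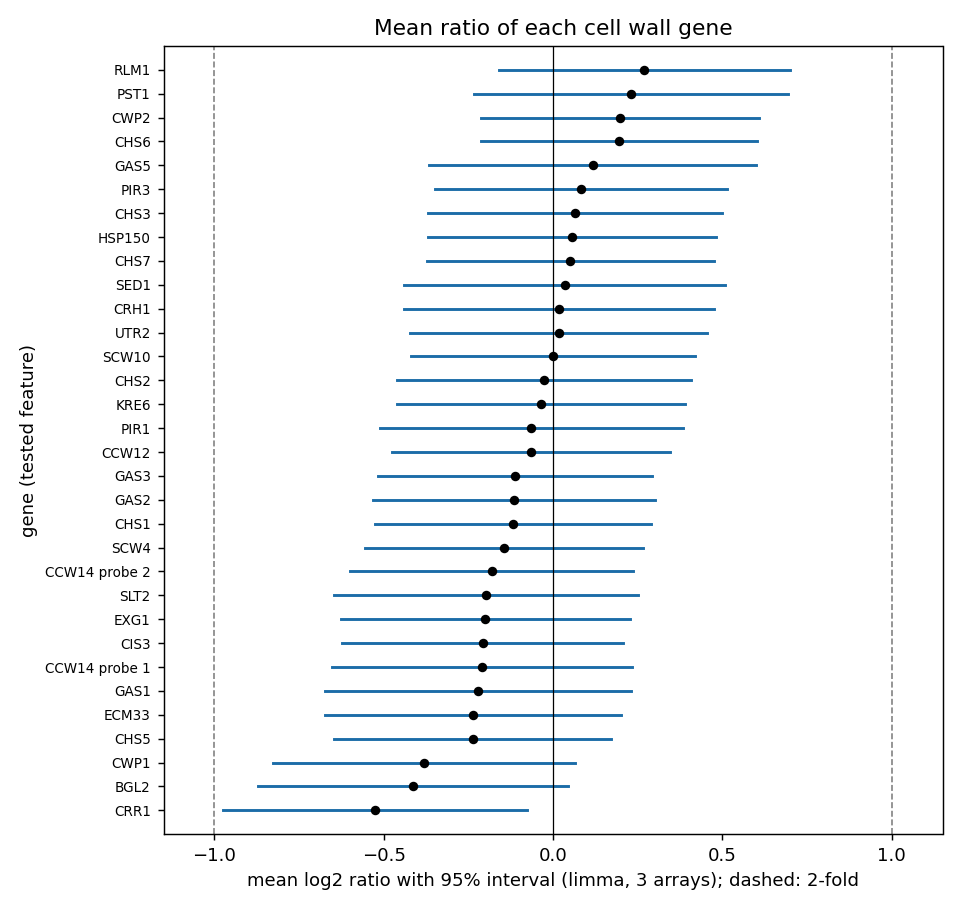
Mean log2 ratio of each cell wall feature over 3 arrays (points) with its 95% interval from limma (bars), sorted by mean; dashed lines mark a 2-fold change. Each bar lies between the dashed lines, and the bar of CRR1 alone does not cross 0, before any adjustment.

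Few members kept 1 sign. On all 3 arrays 5 of 32 features had the same sign, or 15.6%, where 32.0% of all features had 1 sign throughout. They were CHS6 above 0 and GAS3, CRR1, BGL2 and CHS5 below it. For CHS5 and BGL2 this rests on averaging the scans, which differed in sign on 1 array each. CHS5 on replicate 1 was at 0.095 at high and -0.20 at low power, and BGL2 on replicate 2 at -0.11 and 0.085. The members differed between arrays in a shared way, which was noticed after the values were seen and carries no test. The list median was -0.087 on replicate 1, 0.14 on replicate 2 and -0.31 on replicate 3. Over all features the medians were 0.0053, 0.025 and -0.016. On replicate 2 the ratio was above 0 for 21 of 32 members, or 65.6%, where 53.1% of all features were. On replicate 3 it was below 0 for 27 of 32, or 84.4%, where 52.0% of all features were.

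**Figure D2:**
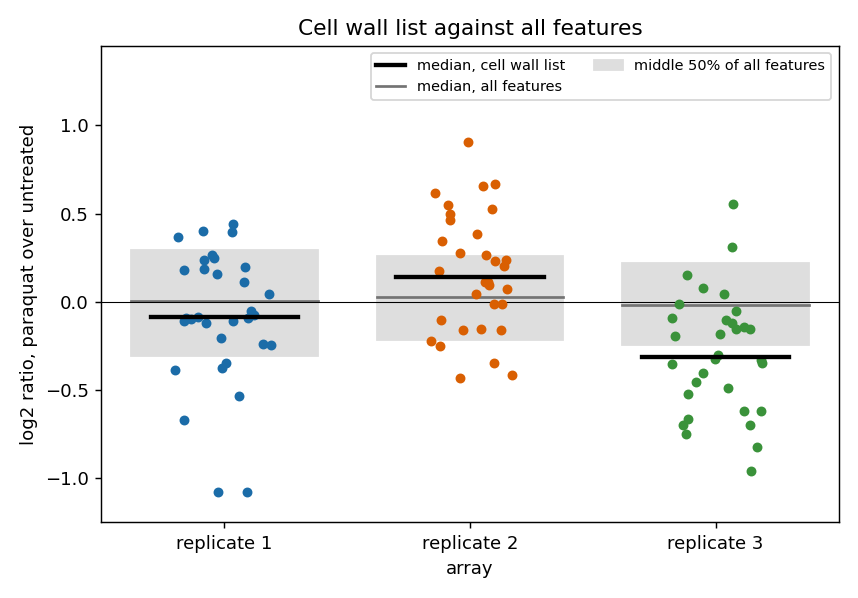
Log2 ratios of the 32 cell wall features on each array (points, spread sideways for sight only), with their median (black line), the median of all 5693 features (grey line) and the middle 50% of all features (grey band). The list's median lies above the grey line on replicate 2 and below the grey band on replicate 3.

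Set against each other, 27 of 32 members were higher on replicate 2 than on replicate 3, or 84.4%, where 53.0% of all features were. The exceptions were GAS2, SCW4, CHS2, CHS3 and CHS7. The median difference of replicate 2 minus replicate 3 was 0.55, against 0.036 over all features. Replicate 2 was highest and replicate 3 lowest for 11 features, or 34.4%, where 18.9% of all features had that order. These were GAS1, GAS5, CRH1, KRE6, EXG1, both CCW14 probes, PST1, SED1, PIR3 and RLM1. Probe numbers, split into their digit fields and used in place of spot positions, accounted in an additive fit for 14.1% of the variance on replicate 1, 18.6% on replicate 2 and 9.85% on replicate 3. With this probe number trend removed, 27 of 32 members were higher on replicate 2 than on replicate 3, where 52.2% of all features were. The median difference over members was then 0.58. An effect of spot position itself was not tested. Each ratio holds a treated and an untreated culture, so a shift in one and the opposite shift in the other cannot be told apart.

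The enzymes that lay down and remodel glucan had ratios on both sides of 0. GAS1 (YMR307W), the main β-1,3-glucanosyltransferase of growing cells, which lengthens glucan chains, was at -0.11, 0.26 and -0.82 on replicates 1, 2 and 3. GAS5, a second enzyme of that family active during growth, had ratios of 0.39, 0.66 and -0.70, the widest spread of the list (SD 0.72). Both were above 0 on replicate 2 and at their lowest on replicate 3. No high power value was present there for GAS1, nor for BGL2, ECM33 and SED1, where the low power scan, made per the labels for signals beyond the scanning range, gave the ratio. GAS3 was at -0.078, -0.11 and -0.15, with the smallest SD of the list (0.038) and a mean of -0.11 (limma adjusted p = 0.89). GAS2, which acts in making the spore wall, had -0.084, -0.42 and 0.15, each from the high power scan alone. Its partner GAS4 had no value on replicate 1 and was not tested, with ratios of -0.22 on replicate 2 and 0.35 on replicate 3.

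The Crh enzymes join chitin to glucan. CRH1 was at 0.18, 0.50 and -0.62 and UTR2, its relative in growing cells, at -0.37, 0.53 and -0.10. Both were highest on replicate 2, and they differed in which of the other arrays was lowest; their means were 0.018 and 0.017. CRR1, the member of the family that acts in spore wall assembly, had ratios of -1.08, -0.012 and -0.49. It had the lowest mean of the list, -0.53 ± 0.53 (SD, n = 3 arrays), with an unadjusted limma p of 0.0238 and an adjusted p of 0.394. Leaving out replicate 1 gave a CRR1 mean of -0.25, leaving out replicate 2 gave -0.78, and removing the probe number trend gave -0.29. Replicates 1 and 2 of CRR1 had a high power value only. KRE6, a membrane protein needed for β-1,6-glucan, was at -0.10, 0.34 and -0.35.

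BGL2, a major wall enzyme that cuts and rejoins β-1,3-glucan, had ratios of -1.08, -0.013 and -0.14 and a mean of -0.41 ± 0.58 (SD, n = 3 arrays; limma adjusted p = 0.522). Replicate 1 stood far below the others, and the mean without it was -0.079. SCW4 and SCW10, related wall glucanases, were at -0.35, -0.16 and 0.075 and at 0.25, 0.11 and -0.36. SCW4 was highest on replicate 3 and SCW10 lowest there, and the difference of SCW4 minus SCW10 averaged -0.14 ± 0.52 (SD, n = 3 arrays). EXG1, the major exo-β-1,3-glucanase, had ratios of -0.093, 0.11 and -0.62, with replicate 3 apart from the others. On replicate 2 the scans of SCW4 were at 0.079 at high and -0.40 at low power, and those of EXG1 at -0.051 and 0.27.

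**Figure D3:**
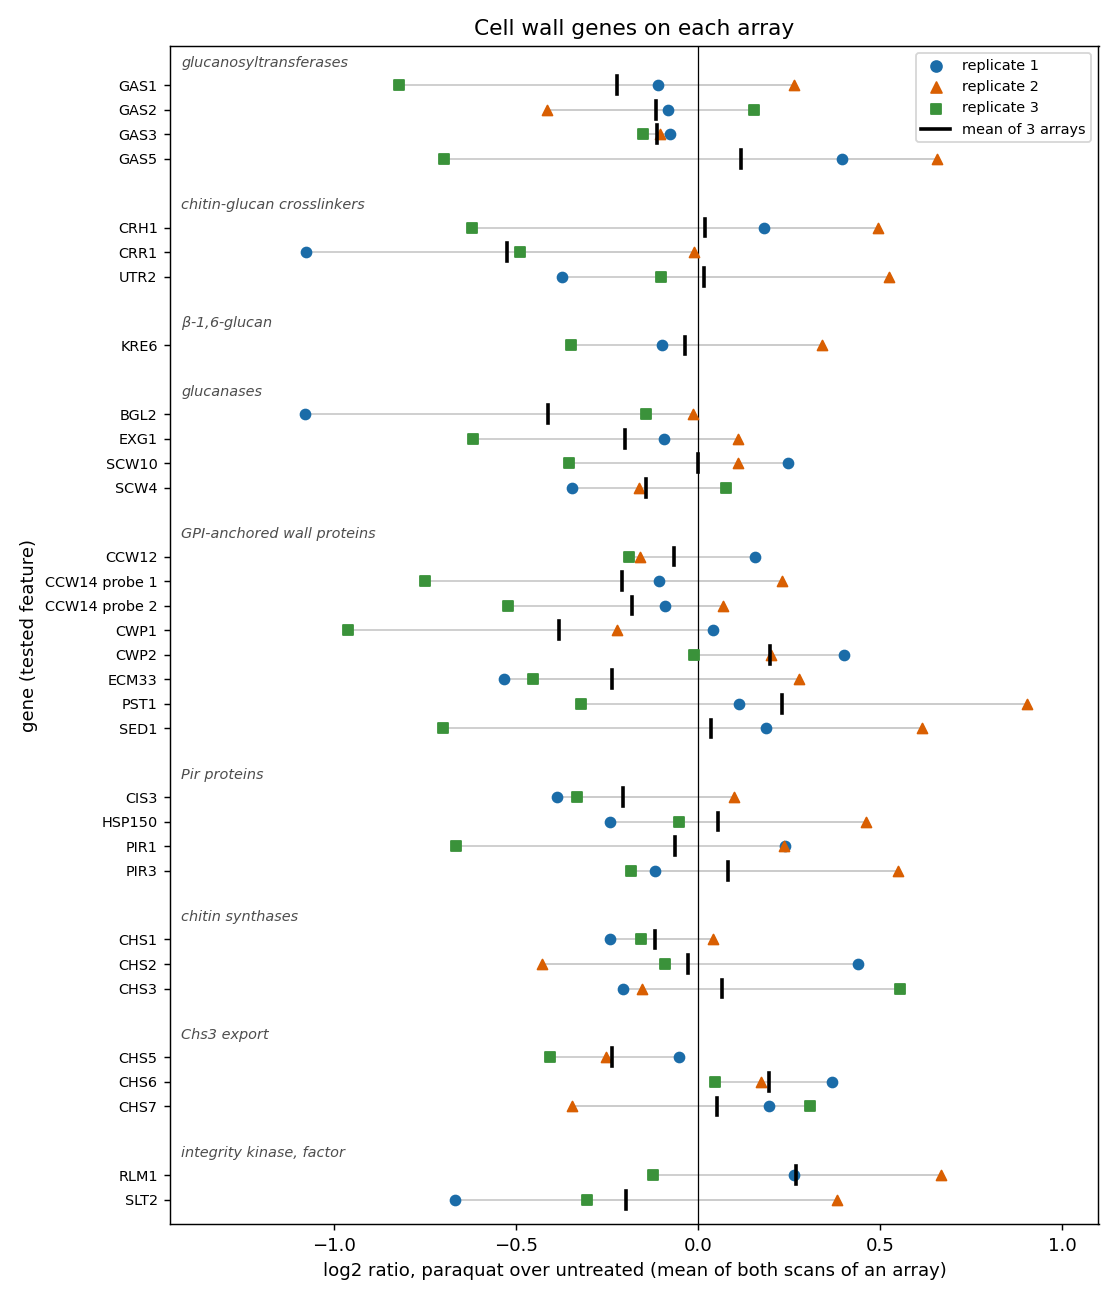
Log2 ratio of paraquat over untreated for each tested cell wall feature on replicates 1 (circles), 2 (triangles) and 3 (squares), grouped by role, with the mean of the 3 arrays as a black bar. Triangles lie to the right of squares for 27 of 32 features, and the 5 features with 1 sign on all arrays are GAS3, CRR1, BGL2, CHS5 and CHS6.

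The GPI-linked wall proteins lay below 0 on replicate 3 in 8 of 8 features, both CCW14 probes included, where 52.0% of all features did. On replicate 2 they lay above 0 in 6 of 8, where 53.1% of all features did. They are part of the list whose pattern is given above. PST1, a protein whose gene is a known target of wall stress signalling, was at 0.11, 0.90 and -0.32, and its close relative ECM33 at -0.53, 0.28 and -0.45. PST1 had the highest single ratio of the list, on replicate 2, and lay above ECM33 on 3 of 3 arrays, by 0.47 ± 0.29 (SD, n = 3 arrays). SED1, a structural protein that is abundant in resting cells, had ratios of 0.19, 0.62 and -0.70, of which that of replicate 1 also came from the low power scan alone. The arrays again disagreed in sign for PST1, ECM33 and SED1, and the mean of PST1 was -0.11 without replicate 2.

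CWP1 and CWP2 encode short mannoproteins and are neighbours on chromosome XI in RefSeq's assembly R64. CWP1 was at 0.041, -0.22 and -0.96, with a mean of -0.38 ± 0.52 (SD, n = 3 arrays; limma adjusted p = 0.554). CWP2 was at 0.40, 0.20 and -0.010, with a mean of 0.20 ± 0.20 (limma adjusted p = 0.772). The ratio of CWP1 minus that of CWP2 was -0.36, -0.42 and -0.95 on replicates 1, 2 and 3, below 0 on 3 of 3 arrays, and this difference was not tested. The mean of CWP2 was 0.096 without replicate 1 and 0.30 without replicate 3, and that of CWP1 was -0.091 without replicate 3.

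CCW12, which encodes an abundant protein needed for a stable wall, had ratios of 0.15, -0.16 and -0.19. That of replicate 1 came from the low power scan alone. CCW14, an inner wall protein, was read by 2 probes, which gave -0.11, 0.23 and -0.75 for the first and -0.090, 0.069 and -0.52 for the second. Both put replicate 2 highest and replicate 3 lowest, and the first minus the second averaged -0.028 ± 0.19 (SD, n = 3 arrays). The spread between arrays within one probe, with an SD of 0.50 and 0.31, was larger than the gap between probes.

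The Pir proteins, which bind β-1,3-glucan directly through a repeated motif, were above 0 on replicate 2 and below 0 on replicate 3 in 4 of 4 cases. Of all features, 53.1% were above 0 on replicate 2 and 52.0% below 0 on replicate 3. Whether these related genes shared signal on the array was not tested, so the 4 may not be separate readings. PIR1 was at 0.24, 0.24 and -0.67 and PIR3 at -0.12, 0.55 and -0.19, with replicate 1 of PIR3 from the high power scan alone. These genes are neighbours on chromosome XI and are read away from each other. HSP150 was at -0.24, 0.46 and -0.053 and CIS3 at -0.39, 0.097 and -0.33, and this pair adjoins on chromosome X, read towards each other. HSP150 lay above CIS3 on 3 of 3 arrays, by 0.26 ± 0.11 (SD, n = 3 arrays). On replicate 1 this rests on averaging the scans. At high power HSP150 lay below CIS3 there, at -0.27 against -0.17, and at low power above it, at -0.21 against -0.61. The means of the 4 genes ran from -0.21 for CIS3 to 0.082 for PIR3, and their limma adjusted p-values from 0.763 to 0.956.

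Of the 6 chitin genes, CHS1, CHS5 and CHS6 were higher on replicate 2 than on replicate 3, where 53.0% of all features were. CHS2, CHS3 and CHS7 had the reverse order, against that of most members. CHS1, whose enzyme repairs the wall after cells part, was at -0.24, 0.041 and -0.16. Its scans differed in sign on replicate 1, at 0.16 at high and -0.65 at low power, and on replicate 2, at -0.033 and 0.12. CHS2, whose enzyme builds the primary septum, had ratios of 0.44, -0.43 and -0.090. It was highest on replicate 1 and lowest on replicate 2. CHS3, whose enzyme makes most of the chitin of the wall and the ring at the bud neck, was at -0.21, -0.15 and 0.55. On replicates 1 and 2 it had a high power value only. CHS3 was the highest feature of the list on replicate 3, and CHS2 the lowest on replicate 2.

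Delivery of Chs3 to the surface needs several helpers. CHS5 and CHS6 encode parts of the exomer coat that sorts Chs3 at the Golgi. CHS5 was at -0.054, -0.25 and -0.41, below 0 on 3 of 3 arrays, with a mean of -0.24 ± 0.18 (SD, n = 3 arrays; limma adjusted p = 0.72). CHS6 was at 0.37, 0.17 and 0.046, above 0 on 3 of 3 arrays, with a mean of 0.20 ± 0.16 (limma adjusted p = 0.772). CHS5 and CHS6 thus lay on opposite sides of 0, and neither passed the test. Of the other exomer genes, listed under chitin supply, BUD7 had a mean of -0.28, BCH2 of -0.086 and BCH1 of 0.014, and none passed (limma adjusted p from 0.648 to 0.984). Without replicate 1 the mean of CHS6 was 0.11, and without replicate 3 that of CHS5 was -0.15. CHS7, needed for Chs3 to leave the endoplasmic reticulum, had ratios of 0.19, -0.35 and 0.31.

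The kinase and the transcription factor of the integrity pathway did not pass either. SLT2, itself a target of the pathway, was at -0.67, 0.38 and -0.30, with a mean of -0.20 ± 0.53 (SD, n = 3 arrays; limma adjusted p = 0.794). Without replicate 1 that mean was 0.039. On replicate 1 its scans differed, at -0.35 at high and -0.98 at low power. RLM1 had ratios of 0.26, 0.67 and -0.12 and the highest mean of the list, 0.27 ± 0.40 (SD, n = 3 arrays; limma adjusted p = 0.695). The RLM1 mean was 0.070 without replicate 2 and 0.47 without replicate 3. Its replicate 1 rested on scans of 0.66 at high and -0.13 at low power, and its replicate 2 on the high power scan alone. Both genes were highest on replicate 2 and below 0 on replicate 3.

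Scans of one array, which share its hybridisation, lay closer together than arrays did. Between high and low power scans the median absolute difference over members was 0.12, 0.071 and 0.074 on replicates 1, 2 and 3. Between arrays it was 0.34 for replicates 1 and 2, 0.42 for 1 and 3 and 0.64 for 2 and 3. Over the members with both scans, Pearson r between scans was 0.699 (n = 26 features), 0.89 (n = 28) and 0.946 (n = 27), across features that share an array. Both scans had the same sign for 22 of 26, 24 of 28 and 25 of 27 members on replicates 1, 2 and 3. Over all features they did for 1762 of 2267, 2163 of 2674 and 3057 of 3828. Between replicates 2 and 3, r over the 32 members was -0.327, where it was 0.0254 over all 5693 features, both given as descriptions. On the high power scans alone 24 of 28 members, or 85.7%, were higher on replicate 2 than on replicate 3, where 52.9% of all features were. On the low power scans alone 25 of 28 were, or 89.3%, where 53.1% of all features were.

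**Figure D4:**
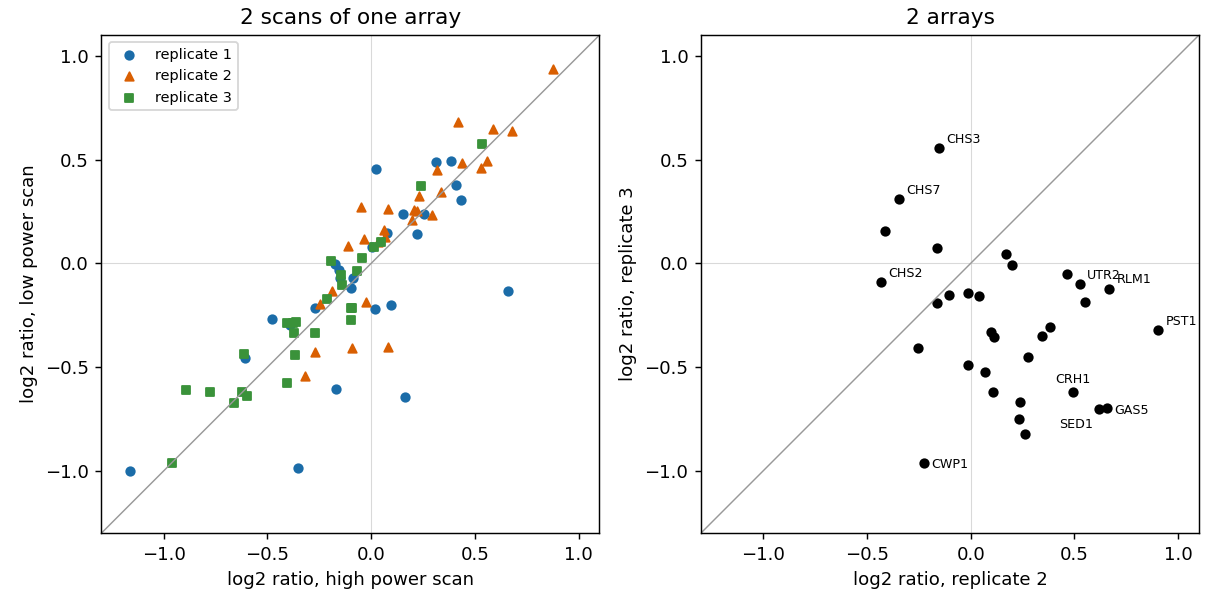
Left, log2 ratio of each cell wall feature at low against high laser power on replicates 1 (circles), 2 (triangles) and 3 (squares); right, replicate 3 against replicate 2. Grey diagonals mark equal values: scans follow the line, while 27 of 32 features lie below it on the right.

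Genes around the list, taken as lists by pathway, held no call either. Of the 26 genes listed for integrity signalling, 25 were tested and 0 passed, with a median mean of 0.074. The highest was MTL1, a surface sensor, at 0.28, 0.85 and -0.036 on replicates 1, 2 and 3, and the lowest PKC1, protein kinase C itself, at -0.78, 0.17 and -0.25. Both were highest on replicate 2. Of the 12 genes of chitin supply and turnover, 9 were tested and 0 passed, from -0.28 for BUD7, an exomer-related gene, to 0.47 for CDA2, a chitin deacetylase of the spore wall. CDA2 was at 1.47, -0.64 and 0.57, so replicate 2 opposed the others. Of the 11 genes of β-1,6-glucan synthesis, 11 were tested and 0 passed, from -0.41 for ROT2, a glucosidase subunit gene, to 0.23 for KNH1. ROT2 was at -0.28, -0.52 and -0.43 (limma adjusted p = 0.463). Among 25, 9 and 11 genes tested in these 3 lists, only ROT2 had an unadjusted p under 0.05, where 10.8% of all features did.

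Of all 5693 features, 2890 had a mean below 0 and 2803 a mean above 0. The mannosylation list had 29 tested genes, of which 21 had a mean below 0 and 0 passed, with a median mean of -0.086. KTR2, a mannosyltransferase gene, was the highest, at 0.31, 0.51 and 0.75 (mean 0.53, limma adjusted p = 0.332), and its relative KTR3 the lowest, at -0.54, -0.36 and -0.35 (mean -0.42, limma adjusted p = 0.453). Each kept 1 sign on all arrays, and they were the 2 genes of 29 at an unadjusted p under 0.05, where 10.8% of all features were. Of 28 listed genes for other wall enzymes and proteins, 24 were tested and 0 passed, and 17 had a mean above 0. The highest was SPI1, a GPI wall protein gene, at 0.85, 0.64 and 0.26 (mean 0.58, limma adjusted p = 0.295), and the lowest was UTH1, a gene of the SUN family, at -0.64, 0.32 and -0.65. TIP1, which encodes a cold-induced mannoprotein, was at 0.48, 1.11 and -0.065 and SPR1, a spore exoglucanase gene, at 0.11, 1.19 and 0.16, and with SPI1 they were the 3 genes of 24 at an unadjusted p under 0.05, a level that 10.8% of all features passed (limma adjusted p = 0.409 and 0.441). The median ratio of this list was 0.19, 0.34 and -0.12 on replicates 1, 2 and 3.

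The order of the arrays differed between the pathway lists. The medians of the integrity signalling list were 0.19, 0.12 and -0.036, and those of the chitin supply list 0.11, 0.049 and -0.092, both highest on replicate 1 and lowest on replicate 3. The β-1,6-glucan list had -0.25, 0.062 and -0.20, highest on replicate 2 and lowest on replicate 1. The mannosylation list had -0.16, -0.15 and -0.053, highest on replicate 3. Of the 5 lists, that of other wall enzymes and proteins was highest on replicate 2 and lowest on replicate 3, as the cell wall list was.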

How the data were processed

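The authors deposited log2 ratios (taken as base 2) of both channels of each array, which per the labels were normalized by LOWESS over the spots that carried flag 0. The image software is not given in any source used here. The array has 6912 probes. Platform annotation gave a single symbol (1 gene) to 5513 of them, several to 0 and none to 1399, and 5508 were matched by gene ID to RefSeq assembly R64 for current names. Probes with identical values to 9 decimals were joined (78 sets), 761 probes without a value were left out, and high and low power scans were averaged, which left 5693 features with a value on all 3 arrays.

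The mean of 3 arrays was tested against 0 with limma 3.58.1 (R 4.3.3; lmFit and eBayes, two-sided). There were 2 residual degrees of freedom and 19.1 from the prior. Adjustment was by Benjamini-Hochberg over all features, at a threshold of 0.05. The fit was tested on simulated data, where it called 13.7% of features changed by 0.5 log2, 88.7% at 1 and 100% at 1.5. The simulated variances came from the limma prior. Members spread more than features in general, with a median SD of 0.40 against 0.30. Precision is limited by the number of arrays (3), and the median standard error over features was 0.20. No source used here says whether the untreated cultures were separate. The p-values rest on a variance between these arrays that limma moderated across features, not on the SD of each feature. GAS3, with an SD of 0.038, was tested with a standard error of 0.19, and GAS5, with an SD of 0.72, with 0.23. Members, role groups, pathway lists and the naming rule (per-array values for members at an unadjusted p under 0.05, for the 5 highest and 5 lowest means, for paralog pairs and for SLT2 and RLM1; of each pathway list, the extremes and genes at an unadjusted p under 0.05) were chosen with earlier results of these data known. The text goes beyond that rule by giving per-array values for the other members too, and values of the exomer genes BUD7, BCH1 and BCH2. Alternatives were other scans, centring, scaling, filters on missing values, named features alone, robust and ordinary variance, a test against 1.2-fold, removal of the probe number trend, and each array left out. The comparison of replicates 2 and 3 and the intervals from each feature's own variance were added after the values were seen. Tables were made with Python 3.11.15, pandas 2.3.3 and scipy 1.17.1, and figures with matplotlib 3.10.9.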

Additional observations from a re-analysis of the deposited data

How the results depend on the processing

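No member passed under any of the 15 alternatives (0 calls in each, limma, smallest adjusted p = 0.134). Over all features, 2 were called higher and 0 lower as reported, against 8 and 10 on low power scans alone, 9 and 5 among named features alone, 10 and 9 with values in all 6 scans, 6 and 0 with robust variance or with values on at least 2 arrays, and 1 and 0 with the trend removed. There were 43 and 26 without replicate 2, 6 and 2 without replicate 3, and 0 without replicate 1. The other 6 alternatives (centring, centring and scaling, high power alone, high power with gaps filled, ordinary variance and the 1.2-fold test) gave 0. Each ratio already sets a treated against an untreated culture on 1 array. No further pairing was possible because the arrays form a single group. The number of members at an unadjusted p under 0.05, 1 as reported, was 0 against 1.2-fold and with the trend removed, 0 on low power scans alone and with values in all 6 scans, where CRR1, that 1 feature, has too few values to be tested, 2 with low power values filling gaps, and from 1 to 3 when 1 array was left out. For all features the share past that level is given only as reported, 10.8%, so the other counts have no background beside them. The list median lay between -0.092 and -0.011 with all arrays kept, and between -0.21 and 0.0062 with 1 left out. The share of members higher on replicate 2 than on replicate 3 was between 81.2% and 89.3% over 6 alternatives. Over all features it was between 49.5% and 53.1%.

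No mean whose sign turned was called, and signs turned for 20 of 32 features under some alternative: with the probe number trend removed (CCW12 0.017, CHS2 0.072, CHS3 -0.0075, GAS2 0.0056, PIR1 0.023 and UTR2 -0.078); with low power values filling gaps (CHS1 0.011, SCW10 -0.020 and UTR2 -0.022), on high power scans alone (CHS1 0.011, SCW10 -0.020 and UTR2 -0.022), with arrays centred and scaled (CRH1 -0.0036 and SCW10 -0.025), on low power scans alone (CRH1 -0.0071 and PIR1 0.011), with arrays centred (SCW10 -0.0046). Leaving out 1 array turned 18, with ranges over the 3 means of CCW14 probe 1 from -0.43 to 0.061, CHS2 from -0.26 to 0.17, CHS3 from -0.18 to 0.20, CHS7 from -0.076 to 0.25, CRH1 from -0.22 to 0.34, EXG1 from -0.36 to 0.0081, GAS1 from -0.47 to 0.077, GAS2 from -0.25 to 0.035, GAS5 from -0.15 to 0.53, HSP150 from -0.15 to 0.20, KRE6 from -0.22 to 0.12, PIR1 from -0.22 to 0.24, PIR3 from -0.15 to 0.22, PST1 from -0.11 to 0.51, SCW10 from -0.12 to 0.18, SED1 from -0.26 to 0.40, SLT2 from -0.49 to 0.039 and UTR2 from -0.24 to 0.21. The cause was not tested.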
